A study of Mus musculus with 16 samples.

Results

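The 10 genes described here are the transcription factor p53 (Trp53 in the mouse), its inhibitors Mdm2 and Mdm4, and 7 genes known as p53 targets: Aen, Cdkn1a, Trp53inp1, Ccng1, Zmat3, Phlda3 and Bax. They were chosen by name, and all 10 were found by symbol among the 38918 features of the deposited tables. The cells were mouse pre-B cells of genotype Blnk-/-, and every group, the control included, carried a retroviral BLNK-ERt2 construct. ERt2 is a mutated hormone-binding part of the oestrogen receptor that holds a fused protein inactive until tamoxifen or its active metabolite is given, so that BLNK, the adaptor downstream of the pre-B cell receptor (preBCR), can be switched on at a set time. There were 4 groups: a control group and groups taken 0.5, 1.5 and 5 h after the start of stimulation. The labels give neither the stimulating agent, its dose nor a vehicle for the control. The number of mice and their age are not given, nor whether the 4 RNA samples came from separate cultures, and the construct is overexpressed, so the amount of BLNK is not that of a normal pre-B cell.

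Each condition was 1 sequencing library, read on 4 lanes that carry the same index and are deposited as 4 samples. Lanes are repeat runs of 1 library and were summed. Without replicate libraries no test between conditions was possible, and each ratio is given with an exact 95% interval that covers counting error only, not the variation between cultures. The libraries held 30746189 to 34533362 total exon reads, and levels are counts per 1000000 total exon reads (CPM). Blnk, which the construct also supplies, was read at 3516 to 3806 CPM. Of 14 pre-B cell markers 13 were found in the tables and all 13 had at least 1 CPM, with a summed level of 14068 to 16496 CPM. Of markers of other cells, 1 of 9 for T and NK cells, 3 of 8 for myeloid cells, 1 of 6 for erythroid and megakaryocyte cells and 1 of 6 for stromal and endothelial cells reached 1 CPM. The myeloid sum was 72.7 CPM in the control, 69.6 at 0.5 h, 61.8 at 1.5 h and 38.8 CPM at 5 h, with Itgam (CD11b) at up to 69.0 CPM as its main gene. The stromal and endothelial sum was 145.0, 135.1, 130.4 and 167.4 CPM in the same order, with Pecam1 (CD31) at up to 166.7 CPM as its main gene. The part of either sum in the values below was not tested. In bulk RNA, fewer cells with a transcript and less transcript per cell cannot be told apart.

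p53 is a transcription factor that is made all the time and destroyed all the time. Mdm2 is the ubiquitin ligase that marks p53 for destruction and blocks its activating domain, Mdm4 is a relative of Mdm2 that mainly blocks that domain, and Mdm2 is itself a p53 target, which closes a negative feedback loop. When DNA is damaged or ribosome assembly is disturbed, p53 escapes Mdm2 and binds pairs of short half-sites near its targets, which include genes for cell cycle arrest, DNA repair, metabolism and cell death. In B cell precursors the genes for the antigen receptor are cut and rejoined while cells pause between rounds of division, and p53 guards that step against unrepaired breaks. p53 is regulated largely through the stability of its protein, which RNA levels do not show.

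Aen was the member with the largest difference from control, and Trp53inp1 was the one with the second largest. Aen was called higher at 1.5 h, at 2.44-fold the control. Trp53inp1 stood at its lowest level at 1.5 h, 1.77-fold below the control, and was called higher at 5 h than at 1.5 h. Trp53, Mdm2, Mdm4, Ccng1, Zmat3 and Bax differed from the control by at most 1.26-fold in every library, Cdkn1a was read at under 4 CPM throughout, and Phlda3 at under 1 CPM. A gene is called here when 1 CPM is added to each library and the ratio then reaches 2-fold, provided that the higher library has 5 CPM or more. Folds in the text are plain ratios of the CPM.

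Of the 10 members, 8 had a promoter sequence in the RefSeq table for the mouse assembly GRCm38.p6, the build also called mm10, and for Trp53inp1 and Zmat3 none was printed. The table gives 300 bases per annotated start, from 250 bases before it to 50 bases after. In the 11 windows of these members 3 motifs were searched, namely the p53 half-site, by its name alone, CACGTG, the E-box bound by MYC and its relatives, and GTAAACA, a forkhead motif, each on both strands. The 3 motifs do not overlap one another in any of the stretches printed here. The stretches are shown because they are the letters in these promoters that a p53 half-site search finds, and capitals mark the match.
Aen, chr7:78895927-78895956, plus strand: agccgaagccGGGCTTGTCCgggcaaggag
Cdkn1a, chr17:29090896-29090925, plus strand: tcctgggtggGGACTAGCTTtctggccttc
Cdkn1a, chr17:29090918-29090947, plus strand: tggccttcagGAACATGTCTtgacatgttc
Mdm2, chr10:117710925-117710954, minus strand: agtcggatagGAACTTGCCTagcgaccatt
Trp53, chr11:69580274-69580303, plus strand: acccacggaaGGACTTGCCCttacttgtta
Ccng1, chr11:40755452-40755481, minus strand: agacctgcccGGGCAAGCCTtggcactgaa
Bax, chr7:45467080-45467109, minus strand: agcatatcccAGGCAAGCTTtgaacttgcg

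A half-site was found in 7 of the 11 windows and in 6 of the 8 members, while 8.36% of all 32851 windows in the table held one. The members were chosen by name as p53, its inhibitors and known p53 targets, so this difference follows the choice and is not a test. The windows of Aen overlap and share the same site, which the 7 count once for each window. No share over all genes was computed to set beside the 6 members. The windows of Mdm4 and Phlda3 held none. The last letters of the Phlda3 window match the start of a half-site that its edge cuts off, so the search could not decide that site. Cdkn1a was the one member with 2 matches in a window, at -73 and -51 counted from the upstream of its annotated starts. Its window at the downstream start, at 29093519 to 29093818, held none. The search allowed no differing letter, so imperfect half-sites were not counted. In the printed Cdkn1a stretch, the letters right after the match at -51 come close to a half-site without matching it. Whether the matches at -73 and -51 act as a pair was not tested. The Aen half-site lies at -121 from one annotated start and at 11 from another, so it is upstream of one start and downstream of the other. CACGTG was found in 1 window each of Trp53, Aen and Bax, against 7.15% of all windows, and the Aen match is printed here because Aen has the largest ratio.
Aen, chr7:78895967-78895996, plus strand: cggcaagggttcCACGTGaaacctgggaaa
GTAAACA was found in the Mdm2 window alone, against 3.65% of all windows. A match describes the letters in the window and says nothing of binding in these cells.

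Trp53 encodes p53 and lies on chromosome 11 at 69580359 to 69591873 in the deposited tables, the same ends as in GENCODE vM21. Its level was 186.6 CPM in the control, 202.8 at 0.5 h, 221.7 at 1.5 h and 229.5 CPM at 5 h. The order of the libraries followed the time of stimulation, and the control lanes, at 184.4 to 191.9 CPM, lay below every lane of the 5 h library, at 220.3 to 242.0 CPM. The lanes at 1.5 h, at 217.8 to 228.5 CPM, overlapped those at 5 h, and the ratio from 1.5 to 5 h was 1.04 (1.002 to 1.07). Against control the ratio was 1.09 at 0.5 h (95% interval 1.05 to 1.12), 1.19 at 1.5 h (1.15 to 1.23) and 1.23 at 5 h (1.19 to 1.27). These ratios lay inside the spread of all genes, and at 5 h Trp53 ranked 1150 of the 9520 genes that reached 5 CPM in 1 of the libraries compared. Reads inside the Trp53 gene but outside its exons stood at 799, 764, 921 and 882 in the same order. Such reads can come from unspliced RNA, but other sources were not told apart. Scaled to the total exon reads of their library, they were 0.98 times the control at 0.5 h (0.88 to 1.08), 1.22 times at 1.5 h (1.11 to 1.34) and 1.24 times at 5 h (1.13 to 1.37).

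Mdm2, the ubiquitin ligase for p53, lies on the minus strand of chromosome 10 at 117688888 to 117710758. It was read at 82.2 CPM in the control, 101.1 at 0.5 h, 77.8 at 1.5 h and 87.8 CPM at 5 h. The 0.5 h library was the highest, and its lanes, at 97.9 to 106.1 CPM, lay above every lane of the other 3 libraries. The ratio to control was 1.23 at 0.5 h (1.17 to 1.29), which ranked 397 of 9516 genes, above the 95th percentile, 0.95 at 1.5 h (0.897 to 0.999) and 1.07 at 5 h (1.01 to 1.13). Between 0.5 and 1.5 h the level of Mdm2 went from 101.1 to 77.8 CPM, a ratio of 0.77 (0.73 to 0.81). Reads outside the Mdm2 exons went the other way at 0.5 h: they numbered 729 in the control, 574 at 0.5 h, 631 at 1.5 h and 778 at 5 h. Their ratio to control was 0.80 at 0.5 h (0.72 to 0.90) and 1.20 at 5 h (1.08 to 1.33). The share of all Mdm2 gene reads that fell outside exons was accordingly 20.4% in the control, 14.4% at 0.5 h, 19.9% at 1.5 h and 22.4% at 5 h. The 0.5 h interval (13.3 to 15.5%) lay apart from the other 3. When all reads in the gene are counted in place of exon reads, the log2 ratio of Mdm2 at 0.5 h is 0.19 in place of 0.30.

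Mdm4, the second inhibitor of p53, lies on the minus strand of chromosome 1 at 132989845 to 133025366 in the tables. It was read at 91.7 CPM in the control, 102.3 at 0.5 h, 106.7 at 1.5 h and 115.1 CPM at 5 h. As for Trp53, the libraries stood in the order of time, and the control lanes (89.4 to 94.2 CPM) did not reach the lanes of any later library. From 0.5 to 1.5 h the difference was within counting error, at 1.04-fold (0.995 to 1.09), and the lanes overlapped (96.2 to 105.1 and 103.5 to 109.4 CPM). The ratio was 1.12 at 0.5 h (1.06 to 1.17), 1.16 at 1.5 h (1.11 to 1.22) and 1.26 at 5 h (1.20 to 1.32). Reads outside exons made up 40.9 to 43.9% of all Mdm4 gene reads, against 15.8 to 17.2% for all genes together, and GENCODE vM21 gives the gene wider ends (132959484 to 133030561) than the tables do. Between 83.2 and 84.0% of its exon reads mapped uniquely. The outside reads of Mdm4 stood at 1.33 times the control at 5 h (1.26 to 1.40), close to the ratio of its exon reads.

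**Figure D1:**
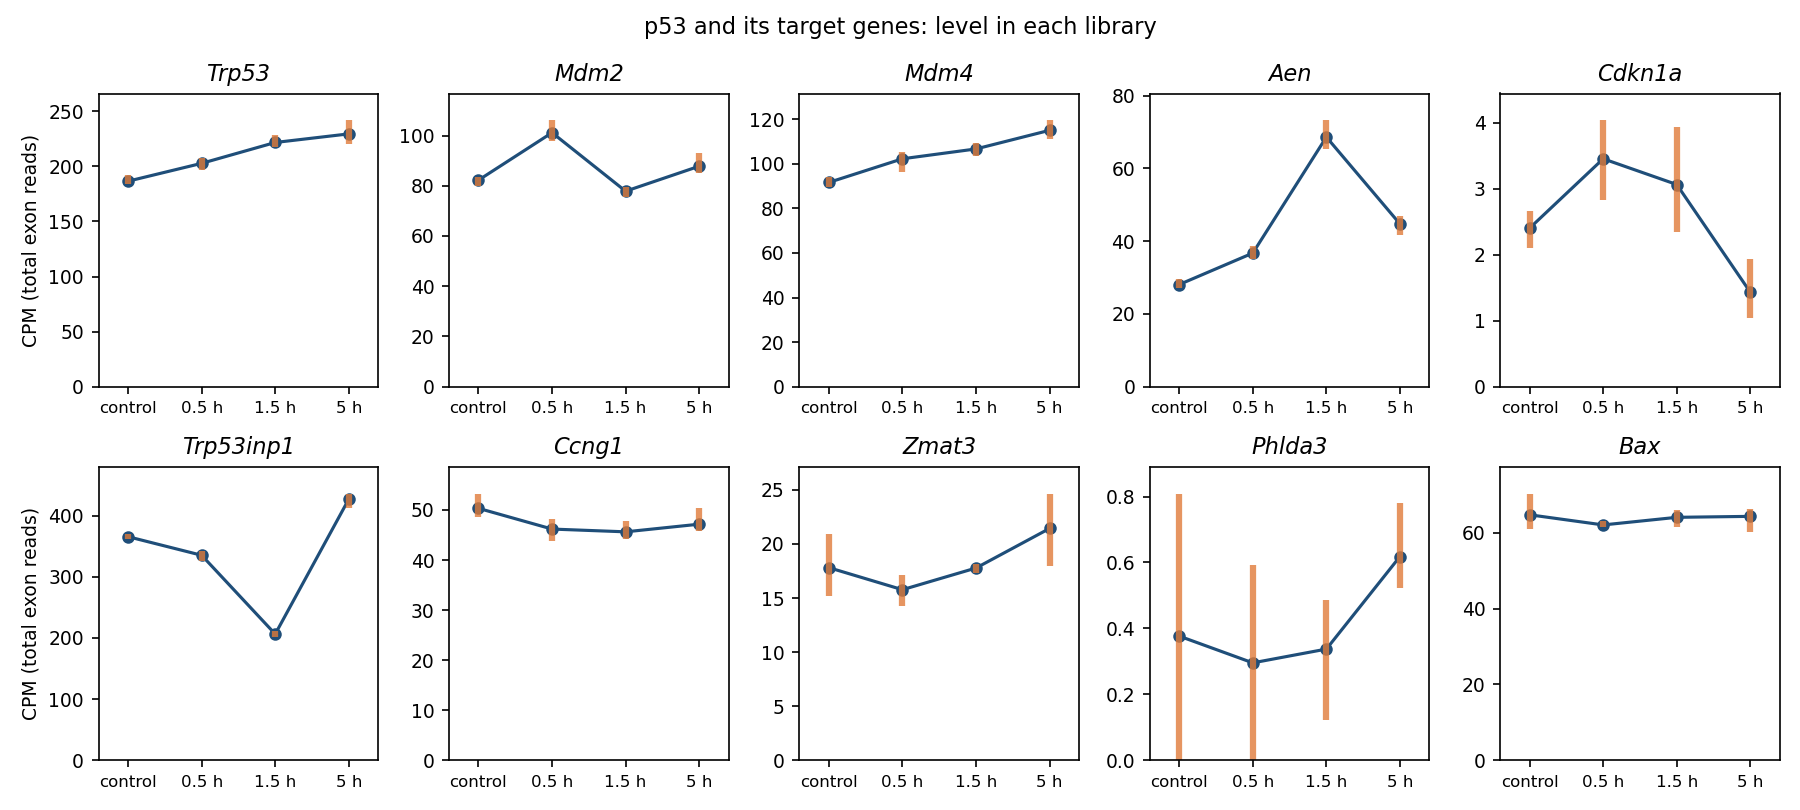
Level of each of the 10 genes (CPM from total exon reads, axis from 0) in the control library and after 0.5, 1.5 and 5 h of stimulation. Points are the summed libraries and orange bars span the lowest to the highest of the 4 lanes, which are repeat runs and not biological replicates; Aen peaks at 68.6 CPM and Trp53inp1 is lowest at 206.3 CPM, both at 1.5 h.

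Aen encodes an exonuclease of the nucleus and nucleolus that p53 induces and that takes part in DNA fragmentation during cell death. The gene lies on chromosome 7 at 78895854 to 78911209 on the plus strand, with the same ends in GENCODE vM21. Its level was 28.1 CPM in the control (970 reads), 36.7 at 0.5 h (1244 reads), 68.6 at 1.5 h (2240 reads) and 44.8 CPM at 5 h (1376 reads). Every lane at 1.5 h, at 65.3 to 73.3 CPM, lay above every lane of the other libraries, and no lane range of the 4 libraries overlapped another. The ratio to control was 1.31 at 0.5 h (1.20 to 1.42), 2.44 at 1.5 h (2.27 to 2.64) and 1.59 at 5 h (1.47 to 1.73). The 1.5 h ratio made Aen 1 of 61 genes called higher at that time and ranked it 23 of 9512. From 0.5 to 1.5 h the ratio was 1.87 (1.743 to 2.004), and from 1.5 to 5 h it was 0.65 (0.61 to 0.70), both short of a call.

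Reads outside the Aen exons, like the exon reads, were highest at 1.5 h, but the order of the other libraries differed. They numbered 87 in the control, 139 at 0.5 h, 214 at 1.5 h and 91 at 5 h. Scaled by library, they stood at 1.63 times the control at 0.5 h (1.24 to 2.16), 2.60 times at 1.5 h (2.02 to 3.38) and 1.17 times at 5 h (0.87 to 1.59). From 1.5 to 5 h the outside reads were 2.22-fold lower (1.73 to 2.86), past 2-fold, and the exon reads were 1.53-fold lower (1.43 to 1.64). At 5 h the outside reads were thus within counting error of the control while the exon reads stood at 1.59 times it. Reads that span an exon-exon junction, which come from spliced RNA, numbered 67, 85, 177 and 120 in the order of the libraries. Between 71.7 and 74.5% of the Aen exon reads mapped uniquely, and the unique reads alone gave 723, 892, 1643 and 1012.

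The gene whose pattern over the 3 times was most like that of Aen was Rrs1, by the distance between log2 ratios to control, among 7640 genes outside the lists with at least 20 CPM in 1 or more libraries. Rrs1 was read at 43.7, 55.9, 91.6 and 65.1 CPM in the control and at 0.5, 1.5 and 5 h. The next 4 were Gnl3 (68.0, 73.6, 154.8 and 101.9 CPM), Dclre1c (35.6, 42.4, 76.4 and 65.3 CPM), Mars2 (22.3, 28.5, 47.7 and 30.3 CPM) and Dusp3 (22.2, 28.4, 58.3 and 28.9 CPM). All 5 were highest at 1.5 h, as the measure of likeness makes likely. The likeness rests on 4 libraries and 3 ratios that share the control library, so it is a description.

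Cdkn1a encodes p21, the inhibitor of cyclin-dependent kinases through which p53 stops the cell cycle, and lies on chromosome 17 at 29090979 to 29100722 on the plus strand. It was read 83 times in the control, 117 times at 0.5 h, 100 times at 1.5 h and 44 times at 5 h. These reads correspond to 2.40, 3.45, 3.06 and 1.43 CPM, under the 5 CPM that a call requires. The ratio to control was 1.44 at 0.5 h (1.08 to 1.93), 1.28 at 1.5 h (0.94 to 1.73) and 0.60 at 5 h (0.40 to 0.87). At 5 h the level was 2.14-fold below that at 1.5 h (1.49 to 3.13), and the lanes at 5 h (1.04 to 1.94 CPM) did not reach those at 1.5 h (2.35 to 3.94 CPM). GENCODE vM21 places the transcript AC167363.2 on the opposite strand over an exon of Cdkn1a, and the strand of counting is not stated, so reads of the 2 cannot be told apart. The window at the upstream start of Cdkn1a was the one with 2 half-site matches among those searched, and the window at its downstream start held none.

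Trp53inp1 encodes a nuclear protein induced by p53 that promotes p53 phosphorylation and autophagy. It lies on chromosome 4 at 11156431 to 11174379 on the plus strand, with the same ends in GENCODE vM21. Its level was 365.6 CPM in the control, 335.3 at 0.5 h, 206.3 at 1.5 h and 427.1 CPM at 5 h. No lane range overlapped that of another library, and the 1.5 h lanes (201.4 to 210.8 CPM) stood far below the rest. The ratio to control was 0.92 at 0.5 h (0.89 to 0.94), 0.56 at 1.5 h (0.55 to 0.58) and 1.17 at 5 h (1.14 to 1.20). The 1.5 h value was 1.77-fold below control (1.72 to 1.83), short of a call, and ranked 57 from the lowest of 9512 genes. From 1.5 to 5 h Trp53inp1 was called higher at 2.07-fold (2.01 to 2.13), with rank 7 of 9453 genes and among 9 genes called in that direction.

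Reads outside the Trp53inp1 exons reached their lowest count earlier than the exon reads. They numbered 606 in the control, 277 at 0.5 h, 341 at 1.5 h and 660 at 5 h. Against control they were 2.15-fold lower at 0.5 h (1.86 to 2.48) and 1.68-fold lower at 1.5 h (1.47 to 1.92), and 1.22 times the control at 5 h (1.09 to 1.37). At 0.5 h the exon reads were 1.09-fold below control (1.06 to 1.12), so that the intervals of the 2 kinds of reads did not meet, whereas at 1.5 and 5 h they did. The share of Trp53inp1 gene reads outside exons was 4.58% in the control, 2.38% at 0.5 h, 4.82% at 1.5 h and 4.79% at 5 h. Among genes with at least 400 outside reads over both libraries, a minimum chosen after the values were seen, 11 of 6168 (0.178%), Trp53inp1 among them, were 2-fold or more lower in such reads at 0.5 h.

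**Figure D2:**
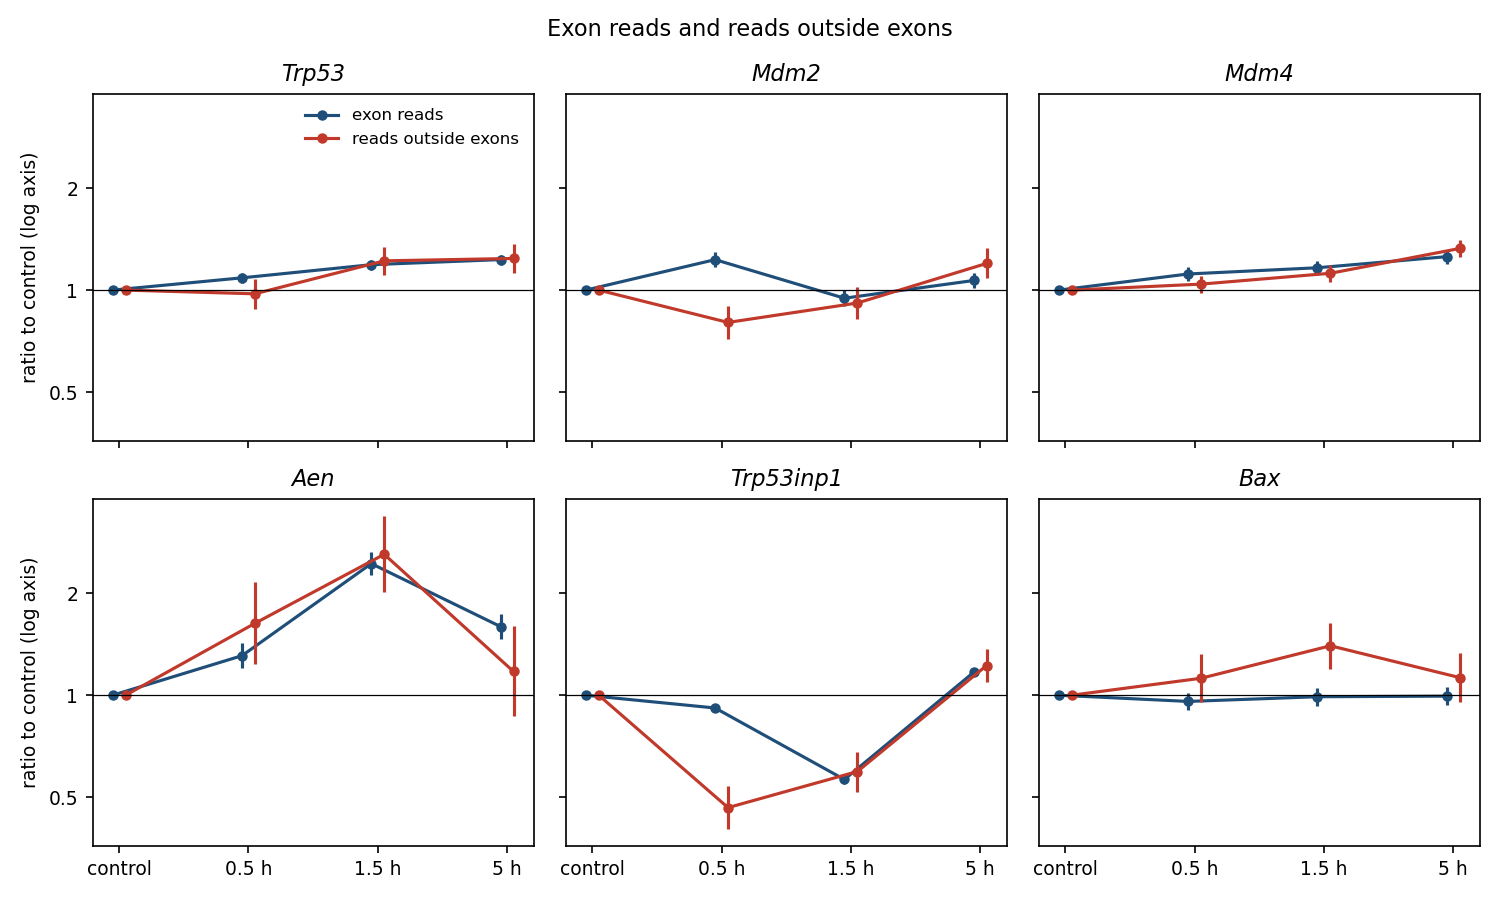
Ratio to control (log axis) of exon reads (blue) and of reads inside the gene but outside exons (red) at 0.5, 1.5 and 5 h, for the 6 genes with more than 80 outside reads in every library; vertical bars are exact 95% intervals for counting error. For Aen both kinds peak at 1.5 h, for Trp53inp1 the outside reads are lowest at 0.5 h and the exon reads at 1.5 h, and for Mdm2 the 2 kinds lie on opposite sides of 1 at 0.5 h.

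The gene most like Trp53inp1 in its 3 ratios was Hbp1, at 44.6, 40.6, 24.2 and 46.2 CPM in the control and at 0.5, 1.5 and 5 h; this search was added after the values of Trp53inp1 were seen. Pik3ip1 (101.0, 87.9, 57.6 and 104.3 CPM), Bmf (43.0, 39.5, 28.3 and 52.8 CPM), Ccng2 (210.8, 192.2, 111.5 and 209.5 CPM) and Cdkn1b (207.1, 201.3, 137.4 and 224.9 CPM) followed. Each of the 5 was lowest at 1.5 h, as the measure of likeness makes likely, so this too is a description.

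Ccng1, which encodes cyclin G1, a p53 target that recruits a phosphatase to Mdm2, lies on the minus strand of chromosome 11 at 40748552 to 40755311. Its level was 50.3 CPM in the control, 46.2 at 0.5 h, 45.6 at 1.5 h and 47.2 CPM at 5 h. The control was the highest, and from one time to the next the intervals of the ratio included 1 (0.92 to 1.06 from 0.5 to 1.5 h and 0.96 to 1.11 from 1.5 to 5 h). The ratio to control was 0.92 at 0.5 h (0.86 to 0.98), 0.91 at 1.5 h (0.85 to 0.97) and 0.94 at 5 h (0.87 to 1.01).

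Zmat3, an RNA-binding zinc finger protein and p53 target, lies on the minus strand of chromosome 3 at 32334796 to 32365678. It was read at 17.8 CPM in the control, 15.8 at 0.5 h, 17.8 at 1.5 h and 21.4 CPM at 5 h. The 5 h library was the highest, but its lanes (17.9 to 24.7 CPM) overlapped those of the control (15.2 to 20.9 CPM). The ratio was 0.89 at 0.5 h (0.787 to 0.996), 0.998 at 1.5 h (0.89 to 1.12) and 1.20 at 5 h (1.08 to 1.35). Outside its exons the reads were few, at 15, 13, 39 and 35 in the order of the libraries. Their ratio to control was 2.75 at 1.5 h (1.48 to 5.37) and 2.62 at 5 h (1.39 to 5.16), both past 2-fold on small counts.

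Phlda3, which encodes an inhibitor of AKT at the membrane, lies on chromosome 1 at 135766119 to 135769136 on the plus strand. It was read 13 times in the control, 10 times at 0.5 h, 11 times at 1.5 h and 19 times at 5 h, or 0.30 to 0.62 CPM. The ratio at 5 h was 1.64 (0.77 to 3.62), and no difference in Phlda3 was detectable at this depth.

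Bax, the pore-forming protein of the mitochondrial pathway of cell death, lies on the minus strand of chromosome 7 at 45461695 to 45466898. Its level was 64.8 CPM in the control, 62.1 at 0.5 h, 64.1 at 1.5 h and 64.4 CPM at 5 h. The lanes of all 4 libraries overlapped, and the ratio was 0.96 at 0.5 h (0.90 to 1.02), 0.99 at 1.5 h (0.93 to 1.05) and 0.99 at 5 h (0.93 to 1.06). These intervals leave out differences of more than 1.11-fold in either direction as far as counting error goes. Reads outside the Bax exons numbered 289, 318, 382 and 290, and at 1.5 h they were 1.40 times the control (1.20 to 1.64). The gene Gm45808 overlaps Bax on the same strand in GENCODE vM21, exons included, so part of these reads could belong to it.

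**Figure D3:**
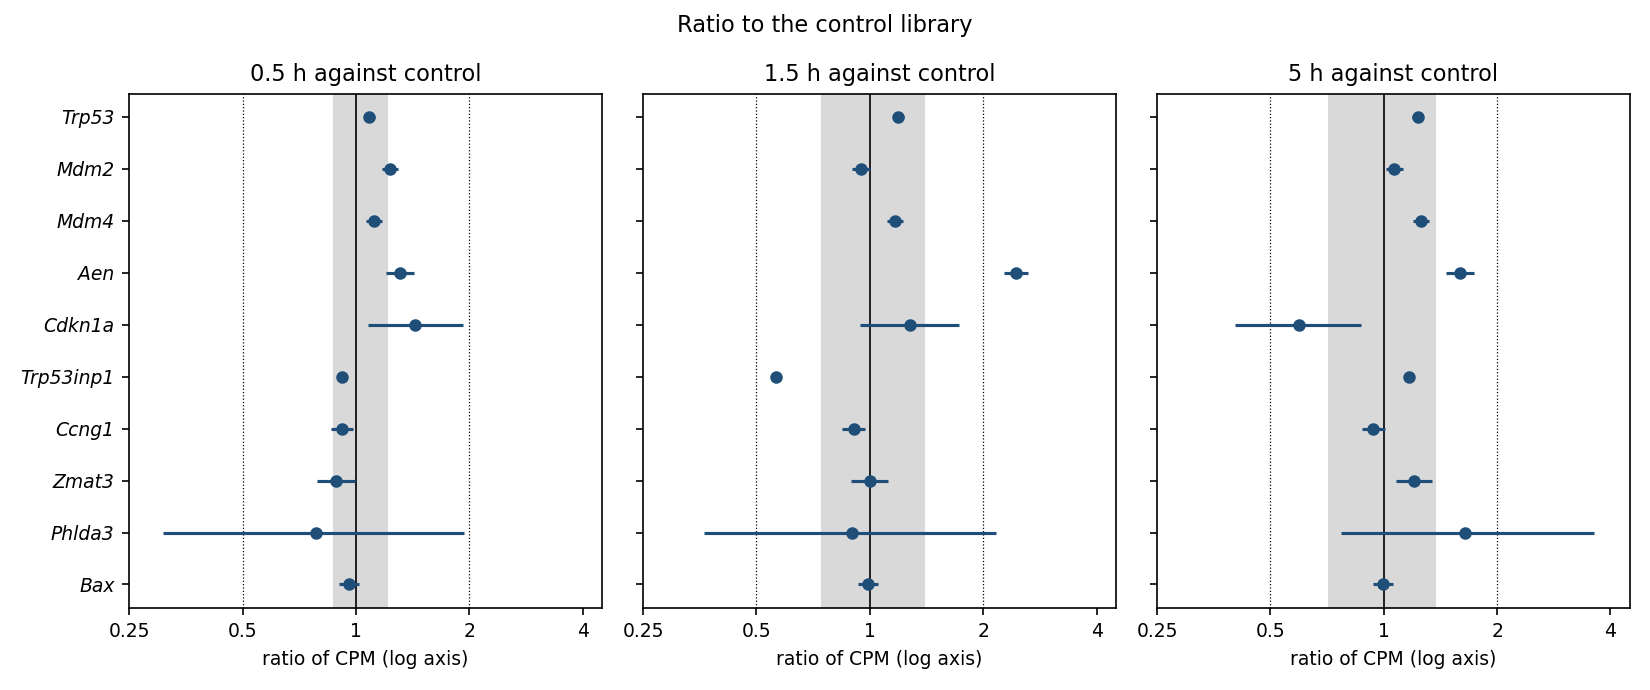
Ratio of CPM to the control library (log axis) for the 10 genes at 0.5, 1.5 and 5 h, with exact 95% intervals for counting error. The grey band spans the 5th to the 95th percentile of all genes that reach 5 CPM in 1 of the libraries compared. The band was taken from ratios after adding 1 CPM, whereas the points are plain ratios, and dotted lines mark 2-fold. Aen lies above the band at all 3 times, Mdm2 above it at 0.5 h and Trp53inp1 below it at 1.5 h. Cdkn1a and Phlda3 are under the 5 CPM of the genes in the band.

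Per kilobase of exon in the tables, the order of the members in the control was Bax (74.5 CPM per kb), Trp53inp1 (56.5), Trp53 (46.1), Mdm4 (26.1), Mdm2 (16.2), Ccng1 (14.3), Aen (4.94), Zmat3 (2.20), Cdkn1a (1.08) and Phlda3 (0.24 CPM per kb). No neighbours in this order had overlapping counting intervals or lanes in the control. At 0.5 h those of Trp53inp1 and Trp53 (51.8 and 50.1 CPM per kb) and of Zmat3 and Cdkn1a (1.95 and 1.55) overlapped. At 1.5 h Trp53, at 54.8 CPM per kb, stood above Trp53inp1, at 31.9, which was then no longer apart from Mdm4 at 30.4. In the same library Aen, at 12.1 CPM per kb, overlapped with Ccng1 at 13.0. At 5 h Trp53inp1 was back in the second place at 66.0 CPM per kb, and Cdkn1a (0.64) and Phlda3 (0.40) overlapped.

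Counted together, 0 of the 10 members were called at 0.5 h, 1 (Aen, higher) at 1.5 h and 0 at 5 h against control. Phlda3 and Cdkn1a were under the floor in every library and could not be called, which left 8. Of all genes that reached this floor, 0.284% were called higher and 0.021% lower at 0.5 h, 0.641% higher and 0.21% lower at 1.5 h, and 0.336% higher and 0.399% lower at 5 h. From 0.5 to 1.5 h 0 members were called, against 0.189% of all genes higher and 0.221% lower. From 1.5 to 5 h 1 member was called (Trp53inp1, higher), against 0.0952% of all genes higher and 0.444% lower. Over the 9 members with at least 1 CPM, the median log2 ratio to control was 0.12 at 0.5 h, -0.003 at 1.5 h and 0.22 at 5 h. In the same order 5, 4 and 6 of the 9 stood above 0. At 5 h the members ranged from -0.49 for Cdkn1a to 0.65 for Aen, and without lane 3 their median was 0.12 in place of 0.22. At 1.5 h the sign of the median depended on the scaling and on the lanes, with 0.018 under TMM scaling, -0.056 without lane 3 and 0.071 without lane 4. The same median over all genes with at least 1 CPM was -0.003, -0.014 and -0.005. The members thus did not stand on 1 side of the control at 1.5 h, when the largest ratios in both directions occurred. The 3 comparisons with the control share that library, so a chance deviation of the control would enter all 3.

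For reads outside exons, a ratio was taken where both libraries together had at least 20 such reads, and a gene was counted past 2-fold with nothing added. Phlda3 had too few such reads in every comparison. Cdkn1a had enough only at 0.5 h against control and from 0.5 to 1.5 h, and the other members had a ratio throughout. At 0.5 h 1 member was past 2-fold (Trp53inp1, lower), where 1.91% of all genes were 2-fold higher and 1.46% lower. At 1.5 h there were 2 (Aen and Zmat3, both higher), against 3.58% of all genes higher and 2.73% lower. At 5 h there was 1 (Zmat3, higher), against 2.7% higher and 1.5% lower. From 0.5 to 1.5 h Zmat3 was higher (39 against 13 reads) and Cdkn1a lower (4 against 18 reads), with 2.41% of all genes higher and 2.27% lower. From 1.5 to 5 h Trp53inp1 was higher and Aen lower, with 3.32% of all genes higher and 1.91% lower.

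The wider pathway was read through 5 lists with 73 genes, all found in the tables (3 of them under an older symbol), of which 60 had at least 1 CPM in 1 or more libraries. Of these, 58, 58 and 57 reached the 5 CPM floor of a call at 0.5, 1.5 and 5 h against control. Against control 1 was called higher at 0.5 h, 1 higher at 1.5 h and 0 at 5 h, and all of these calls were Plk3. Among all genes at the floor, 0.284% were called higher and 0.021% lower at 0.5 h. The shares were 0.641% higher and 0.21% lower at 1.5 h, and 0.336% higher and 0.399% lower at 5 h. From 0.5 to 1.5 h 1 gene, Gadd45a, was called lower, beside 0.221% of all genes. From 1.5 to 5 h 1, Plk3, was called lower, beside 0.444% of all genes. The counts of calls per list given below stand beside these same shares. The median log2 ratio of the 60 genes was 0.01 at 0.5 h, -0.04 at 1.5 h and -0.01 at 5 h, beside the medians of all genes just given, and 34, 26 and 28 of them stood above 0. For reads outside exons, 60 listed genes had enough reads for a ratio at 1.5 h, 30 above and 30 below the control. These are not the same 60 genes as those with at least 1 CPM, since Sfn and Gadd45a had too few such reads. Of these, 5 were past 2-fold higher (Bbc3, Bid, 9630033F20Rik, Npm1 and Usp10) and 1 lower (Tnfrsf10b), beside 3.58% higher and 2.73% lower of all genes. Usp10 and Tnfrsf10b fall outside the rule for named genes and are named because of these values. At 0.5 h 1 of 60 was past 2-fold higher (Plk3) and 0 lower, beside 1.91% higher and 1.46% lower of all genes. At 5 h 0 were higher and 2 lower (Plk3 and Tnfrsf10b), beside 2.7% higher and 1.5% lower of all genes. For Plk3 that was 6 reads against 14, a ratio of 0.48 with an interval that includes 1 (0.15 to 1.33). From 0.5 to 1.5 h 3 were higher (Bbc3, Bid and Usp10) and 0 lower, beside 2.41% higher and 2.27% lower of all genes. From 1.5 to 5 h 0 were higher and 4 lower (Plk3, Bbc3, Bid and Usp10), beside 3.32% higher and 1.91% lower.

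Among the 16 listed targets in cell cycle arrest and feedback, 14 were measured, and the calls fell in this list. Plk3, a polo-like kinase that is also known as an immediate early gene, was read at 2.69 CPM in the control, 8.92 at 0.5 h, 8.73 at 1.5 h and 3.38 CPM at 5 h. The 0.5 and 1.5 h libraries were the high ones, at 3.31-fold (2.62 to 4.22) and 3.24-fold (2.56 to 4.14) the control. Gadd45a, a growth arrest protein, stood at 7.50, 7.65, 3.31 and 4.65 CPM, and 62.9% of its reads at 0.5 and 1.5 h together mapped uniquely. Its log2 ratio from 0.5 to 1.5 h was -1.005, at the limit of a call, and the call was lost with TMM or DESeq2 scaling, unique reads, all gene reads or without lane 1, 3 or 4. Sesn1, a stress sensor of the mTORC1 pathway and a target of both p53 and FoxO, had 68.5, 61.0, 38.0 and 57.2 CPM, with its lowest value at 1.5 h. Its relative Sesn2, a target of p53 and of the amino acid response, had 27.9, 35.4, 35.4 and 19.3 CPM, with its lowest value at 5 h. Sfn (14-3-3 sigma) had 13.3, 12.1, 7.54 and 6.44 CPM, and Gtse1, a microtubule protein that moves p53 out of the nucleus, had 65.7, 65.8, 52.2 and 56.5 CPM. Plk2 and Psrc1 were read at most 3 times in any library.

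Of the 16 listed targets in cell death, 11 were measured, 9 reached the 5 CPM floor, and 0 were called in any comparison. Bid, which links death receptors to mitochondria, had 17.3, 16.0, 27.9 and 19.1 CPM, with its highest value at 1.5 h. Outside the exons of Bid the reads numbered 261, 322, 752 and 315, and at 1.5 h they were 3.05 times the control (2.65 to 3.52). Bbc3, which encodes the BH3-only protein PUMA, had 8.28, 8.59, 10.3 and 6.67 CPM, and its outside reads numbered 55, 48, 132 and 28, or 2.54 times the control at 1.5 h (1.84 to 3.55). Trp53i11 stood at 295.9, 295.8, 288.9 and 208.0 CPM and Trp53i13 at 14.7, 15.7, 13.5 and 9.53 CPM, both lowest at 5 h. Fas, Perp, Pmaip1 (which encodes NOXA), Dram1 and Eda2r were under 1 CPM, with at most 13 reads in any library.

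Of the 16 listed targets in DNA repair and metabolism, 12 were measured and 0 were called. Tigar, a bisphosphatase that diverts glucose to the pentose phosphate pathway, appears in the tables as 9630033F20Rik, an older name in RefSeq, and had 8.25, 11.2, 14.1 and 8.98 CPM. Its highest value was thus at 1.5 h, at 1.71 times the control (1.47 to 1.99). Pml, the scaffold of nuclear bodies, had 184.3, 174.9, 126.9 and 140.2 CPM, and Polh, a polymerase that copies past damaged bases, had 71.0, 70.8, 56.3 and 74.1 CPM. Both were lowest at 1.5 h. The outside reads of Pml were also lowest there, at 1716, 1334, 1131 and 1460, or 1.43-fold below the control at 1.5 h (1.33 to 1.55). Slc19a2, a thiamine transporter, stood at 10.9, 12.9, 14.2 and 13.8 CPM. Ak1, Dcxr, Gls2 and Sco2 were under 1 CPM.

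All 23 listed kinases and regulators of p53 were measured, and 0 were called. Hipk2, a kinase that phosphorylates p53, had 114.0, 173.3, 155.2 and 140.5 CPM, highest at 0.5 h with 1.52 times the control (1.46 to 1.58). The damage kinases Atm (98.6, 112.2, 100.3 and 135.1 CPM) and Atr (82.9, 83.1, 82.7 and 113.7 CPM) had their highest values at 5 h. Npm1, the nucleolar protein that stabilises p53 when nucleoli are disturbed, had 1292, 1206, 1295 and 1629 CPM, while its outside reads numbered 437, 692, 1170 and 653, highest at 1.5 h at 2.83 times the control (2.54 to 3.17). Of the Npm1 exon reads in the control and at 1.5 h together, 45.6% mapped uniquely. The p53 relatives Trp63 and Trp73 were read 0 times and at most 1 time in any library, and 0 reads allow up to 0.0869 to 0.0976 CPM.

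**Figure D4:**
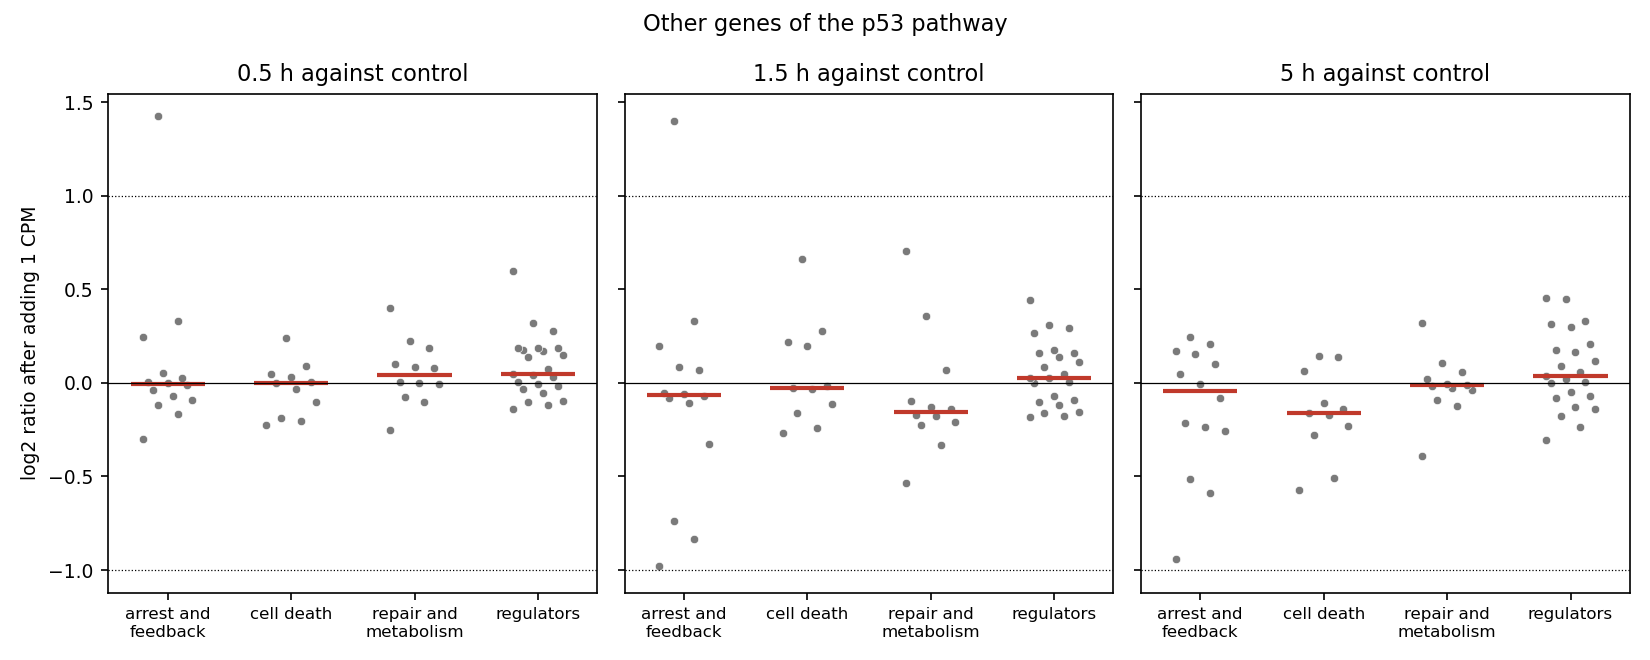
Log2 ratio to control after adding 1 CPM for the measured genes of 4 wider lists (grey points, 1 per gene) at 0.5, 1.5 and 5 h, with the list median in red and dotted lines at 2-fold. The point above the upper line at 0.5 and 1.5 h is Plk3, and the medians lie between -0.16 and 0.05.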

How the data were processed

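Per the labels' protocols, poly(A) RNA from TriFast extracts went into TruSeq or NEBNext libraries, without a statement of the kit per library. CASAVA 1.8.2 and mm10 are named in the submitters' processing notes. The strand, the aligner and the counting program were not given in the sources used here. Raw read counts per gene and lane fill the 3 deposited tables, per the file headers. They hold total and unique exon reads and total and unique gene reads. Columns left unmatched to a sample numbered 0. Control counts are the same in the 3 tables, and 0 pairs of lanes were identical.

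The 4 lanes of each library were summed and total exon reads were scaled to CPM, and log2 ratios were taken after adding 1 CPM to both libraries. Reads outside exons are total gene reads less total exon reads. Intervals of ratios are exact 95% Clopper-Pearson intervals of the split of reads between both libraries; shares of reads have the same kind of interval. The libraries had no stated molecular identifiers, so reads may be copies of 1 molecule, and intervals and limits cover counting error only. With 1 library per condition no test was run. The rule for named genes took all members, every called gene of the wider lists and up to 4 others per list with the largest ratios, and the 5 genes most like the member with the largest ratio. The members and lists were chosen with earlier results of these data known; the motifs, the minimum of 400 outside reads and the likeness search for Trp53inp1 were added after seeing the data. The call rule was run on simulated counts with counting error only, so that run says nothing of variation between cultures. Alternatives used edgeR 4.0.16 (TMM) and DESeq2 1.42.0 size factors, unique exon reads, total gene reads, other pseudocounts, floors and folds, and lanes left out or taken as blocks. Software: R 4.3.3, Python 3.11.15, scipy 1.17.1, numpy 2.4.6, pandas 2.3.3, matplotlib 3.10.9.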

Additional observations from a re-analysis of the deposited data

Results flagged for a closer look

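Of the 40 sets of 4 lanes (10 genes in 4 libraries), 4 held a lane apart from the other 3 by Dixon's criterion, which flags about 1 in 20 by chance. They were a Trp53 lane of the control at 191.9 CPM (others 184.4 to 185.5), an Mdm2 lane of the control at 79.8 CPM (others 82.8 to 83.4), an Mdm4 lane at 0.5 h at 96.2 CPM (others 103.8 to 105.1) and a Ccng1 lane at 5 h at 50.5 CPM (others 45.8 to 46.4).

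In 5 cases all 4 lanes of 1 time stood on one side of the control and all 4 lanes of a later time on the other; lanes are repeat runs of 1 library, and the differences were not tested. For Mdm2 the log2 ratio at 1.5 h less that at 0.5 h was -0.37, and that at 5 h less that at 1.5 h was 0.17. For Cdkn1a the ratio at 5 h less that at 0.5 h was -0.87, on 44 to 117 reads a library. For Trp53inp1 the ratio at 5 h exceeded that at 0.5 h by 0.35 and that at 1.5 h by 1.05.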

How the results depend on the processing

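Of 34 log2 ratios of members of at least 0.1 in size, 0 changed sign under 11 alternatives, and the median of the genes at the 5 CPM floor stayed between -0.0114 and 0.0193. The calls of Aen and Trp53inp1 held in the counts of calls under every alternative; at 1.5-fold the members called were 2 at 1.5 h, 1 at 5 h, 2 from 0.5 to 1.5 h and 2 from 1.5 to 5 h. For the wider lists, a pseudocount of 5 CPM or a floor of 20 CPM left 0 calls in each comparison. A threshold of 1.5-fold gave 2, 6 and 2 calls at 0.5, 1.5 and 5 h, 4 from 0.5 to 1.5 h and 3 from 1.5 to 5 h. A pseudocount of 0.1 CPM gave 2 calls at 1.5 h and 1 at 5 h. From 0.5 to 1.5 h TMM factors, DESeq2 size factors, unique exon reads and total gene reads each gave 0. Leaving out lanes gave 1 to 2 wider calls at 1.5 h, 0 to 1 at 5 h and 0 to 1 from 0.5 to 1.5 h. Members past 2-fold in reads outside exons were 1 to 2 at 0.5 h, from 0.5 to 1.5 h and from 1.5 to 5 h. Lanes share only a number between libraries; with the lane as a replicate block the wider lists had 2 calls at 1.5 h in place of 1, and no other count moved past 1.5 times. Bax in the control was 88.7 CPM per kb from unique exon reads and 70.8 from total gene reads. The 1 library per condition limits every comparison, and depth limits Cdkn1a, Phlda3 and the outside reads of Zmat3 and Aen.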
